A study of Mus musculus with 21 samples.

Results

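The Cyp3a family was followed through 9 array spots that carry the name of a listed Cyp3a gene, out of 55681 non-control probes with 34797 different names on the array. The listed genes were Cyp3a11, Cyp3a13, Cyp3a16, Cyp3a25, Cyp3a41a, Cyp3a44 and Cyp3a59, and a spot was taken when its gene name was one of these 7. Spots were found for 6 of the 7 names. No spot was named Cyp3a41a; the spot named Cyp3a41b lists transcripts of both Cyp3a41b and Cyp3a41a, so it is described alongside the members, as is a spot named Cyp3a57. Of the 9 member spots, 8 were brighter than the filter used for testing, and the spot for Cyp3a44 was not.

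Livers came from adult male C57BL/6J mice. All animals had a normal-fat diet for 3 weeks and then a high-fat diet for 12 weeks, either plain (HF, 11 arrays) or containing 0.33% quercetin by weight (HF-Q, 10 arrays), and were fasted for 2 to 4 h before death. Quercetin is a plant flavonol. Arrays of 3 of the 24 mice had been left out by the authors. Liver RNA of each mouse was labelled with Cy5 and hybridised against a Cy3-labelled pool of all samples, so a log2 ratio of 0 means the level of the pool; both groups ate the high-fat diet, and livers from mice kept on the normal-fat diet are not analysed here.

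CYP3A enzymes are haem-containing monooxygenases of the endoplasmic reticulum that oxidise steroids, bile acids and a wide range of drugs, using electrons passed on by the reductase Por. In mouse liver Cyp3a11 is the best known form and a standard readout of the xenobiotic receptors PXR (Nr1i2) and CAR (Nr1i3). Most mouse Cyp3a genes lie in a single cluster on chromosome 5, and Cyp3a13 lies apart from it on the same chromosome. Cyp3a41 and Cyp3a44 are known for higher levels in females, and Cyp3a16 for its presence in the fetal liver.

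The arrays were of even quality, with 44.2% to 51.3% of probes well above background, and the 3 slides each held both diets. All 8 hepatocyte marker genes were above the filter. The highest correlation between 2 arrays was 0.63 for log2 ratios and 0.997 for Cy5. No array was labelled a repeat, so these values cannot tell whether 1 sample was hybridised again. The mean log2 ratio of the pancreatic acinar markers reached 2.58 in 1 HF liver, against -1.04 to -0.18 in the HF-Q livers; its part in the results below was not tested. In whole liver, fewer cells of a type and less RNA per cell cannot be told apart.

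What each spot can read depends on its sequence. Cyp3a11 has a pair of spots. Cyp3a11 probe 1 covers bases 1104 to 1163 of its transcript and spans 1868 bases of the genome (NCBI37, chr5:146672058-146673925, minus strand), so it crosses an intron. The files attach transcripts of 4 genes to it: Cyp3a11, Cyp3a41b, Cyp3a41a and Cyp3a44. Its signal may therefore be a sum over these genes. Cyp3a11 probe 2 lies further along the transcript, at bases 1939 to 1998 (chr5:146666237-146666296), and lists Cyp3a11 alone. Cyp3a59 also has a pair, Cyp3a59 probe 1 at bases 1349 to 1408 (chr5:146920638-146920697, plus strand) and Cyp3a59 probe 2 at bases 1622 to 1681 (chr5:146924485-146924544). The shared Cyp3a11 probe is shown because the files tie it to 4 genes, and the earlier Cyp3a59 probe because it differed from the other probe of its gene in the size of the diet difference. The third sequence is a probe without a gene name, at chr5:146397191-146397250. It had the highest r with Cyp3a11 of all genes compared that carry no Cyp3a name. Each of the 3 leaves 1 forward reading frame open over its 60 bases.
Cyp3a11 probe 1: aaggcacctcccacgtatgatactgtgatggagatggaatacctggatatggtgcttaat
Cyp3a59 probe 1: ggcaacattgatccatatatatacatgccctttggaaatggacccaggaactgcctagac
A_55_P2148071: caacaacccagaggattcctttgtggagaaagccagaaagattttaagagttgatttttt

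The remaining spots list transcripts of 1 gene each, apart from Cyp3a41b. Among the family's 11 spots, only those of Cyp3a44 and Cyp3a41b share a word of 18 bases with any other probe of the array, and they share it with each other. The shared stretch is 23 bases long, in capitals here within windows of 30 bases; the next longest stretch shared by any pair of the 11 was 9 bases.
Cyp3a44: CACTGAGCTTTCTCAGTGTCTGTgcaagtt
Cyp3a41b: CACTGAGCTTTCTCAGTGTCTGTacaggtt
The letters compare probes only with one another, and hybridisation to transcripts of other genes was not tested. A spot that lists 1 gene, Cyp3a59 probe 1 included, may therefore also read other members.

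Cyp3a11, the principal hepatic form, did not differ detectably between the diets. At Cyp3a11 probe 2 the Cy5 signal above background had a lowest, median and highest value of 77980, 94930 and 118100 in HF livers and of 77250, 88410 and 143600 in HF-Q livers. The log2 ratio to the pool ran from -0.24 through a median of 0.14 to 0.38 in HF and from -0.25 through 0.0032 to 0.90 in HF-Q. The groups overlapped over nearly the whole range, and the highest value belonged to a single HF-Q liver, replicate 7. The log2 fold change, HF-Q minus HF, was -0.035 ± 0.11 (SE; 95% interval -0.27 to 0.20; limma adjusted p = 0.999). The shared Cyp3a11 probe 1 gave -0.0012 ± 0.12 (95% interval -0.24 to 0.24), with Cy5 signals of 16590 to 29870 in HF and 19130 to 37890 in HF-Q livers. Its sign turned to positive under 8 of the alternative settings, at values of up to 0.10. Differences inside these intervals are compatible with the values, and the intervals are not limits of detection. Without replicate 7 of HF-Q the log2 fold changes of probes 1 and 2 were -0.087 and -0.13, neither with an unadjusted limma p under 0.05.

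The spots named Cyp3a16 and Cyp3a41b gave the same picture. Both were well above background on all 21 arrays of these adult males, although Cyp3a16 is known from fetal liver and Cyp3a41 from females. They may cross-hybridise with transcripts of Cyp3a11 or other members, which was not tested. The Cyp3a16 spot (chr5:146197274-146197333) had Cy5 signals with a median of 17650 in HF and 16870 in HF-Q, log2 ratios of -0.45 to 0.25 and of -0.44 to 0.73, and a log2 fold change of -0.030 ± 0.11 (SE; limma adjusted p = 0.999). The Cyp3a41b spot (chr5:146319794-146319853) had medians of 2589 and 2459 and a log2 fold change of -0.0034 ± 0.11. In both, replicate 7 of HF-Q was again the highest of the 21 livers, at log2 ratios of 0.728 and 0.998. The array of this liver had the lowest share of probes well above background, 44.2%, and the lowest median correlation of log2 ratios with the other arrays, 0.27; the part of this in the values was not tested.

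The Cyp3a44 spot (chr5:146585717-146585776) was not well above background on any of the 21 arrays. Its Cy5 signal above background lay between 4.0 and 18.95 in HF and between 0.9 and 16.45 in HF-Q livers, so only a bound could be given and no fold change.

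Cyp3a25 had the lower mean in HF-Q livers. At its spot (chr5:146788879-146788938, transcript bases 1833 to 1892) the Cy5 signal had a lowest, median and highest value of 22160, 27740 and 34450 in HF and of 15520, 23340 and 30350 in HF-Q. The log2 ratio ran from -0.13 through 0.14 to 0.44 in HF and from -0.67 through -0.071 to 0.21 in HF-Q. The groups overlapped, with 9 of 10 HF-Q livers below the HF median. The log2 fold change was -0.31 ± 0.087 (SE; 95% interval -0.50 to -0.13), a ratio of 1.24 between HF and HF-Q; the unadjusted limma p was 0.0014 and the p adjusted over all 26288 probes was 0.812, so the difference did not pass the threshold. Within slides 1, 2 and 3 the log2 fold changes were -0.30, -0.34 and -0.38, and with slide as a block the value was -0.35 (adjusted p = 0.418). Without replicate 7 of HF-Q, the lowest liver, it was -0.25 with an unadjusted limma p of 0.0023.

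The probe of Cyp3a57 (chr5:146151322-146151381, plus strand) gave values close to those of Cyp3a25. Its log2 ratio ran from -0.26 through 0.15 to 0.48 in HF and from -0.66 through -0.097 to 0.22 in HF-Q. The log2 fold change was -0.29 ± 0.089 (SE), with an unadjusted limma p of 0.0031 and an adjusted p of 0.812.

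The probes of Cyp3a59 disagreed in size. Cyp3a59 probe 2 was the dimmest spot among those tested, with Cy5 signals of 564.3, 763.2 and 1049 (lowest, median, highest) in HF and 248.1, 502.2 and 804.9 in HF-Q. Its log2 ratio ran from -0.19 through 0.26 to 0.52 in HF and from -0.97 through -0.41 to 0.50 in HF-Q. Of the HF-Q livers, 9 of 10 were below the HF median; replicate 10, at 0.50, was the exception. The log2 fold change was -0.51 ± 0.14 (SE; 95% interval -0.80 to -0.22), a ratio of 1.42 between HF and HF-Q, with an unadjusted limma p of 0.0014 and an adjusted p of 0.812. Within slides 1, 2 and 3 it was -0.27, -0.76 and -0.70. Without replicate 10 of HF-Q it was -0.60, with an adjusted limma p of 0.124, the lowest for this probe over all settings. Cyp3a59 probe 1, at 12640 to 22510 in HF and 13620 to 18650 in HF-Q, gave -0.12 ± 0.075 (SE; 95% interval -0.28 to 0.033; adjusted limma p = 0.943).

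A test of the difference between the probes of Cyp3a59 was added after these values were seen. Per liver, probe 2 minus probe 1 was 0.27 ± 0.17 (SD, n = 11) in HF and -0.12 ± 0.46 (SD, n = 10) in HF-Q. The difference, -0.39, had a two-sided permutation p of 0.0142 (0.0284 adjusted over the 2 such tests). Neither value allows for the choice of this pair after its values were seen. Without replicate 7 of HF-Q the adjusted permutation p was 0.0633, and on slide 1 alone the difference was -0.077, against -0.61 on both other slides. The same test of Cyp3a25 minus Cyp3a11 probe 2 gave -0.28 with an adjusted permutation p of 0.122, so a difference in response between these genes was not established.

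Cyp3a13, the member outside the main cluster, varied least. Its probe 1 (chr5:138335412-138335471) had Cy5 signals of 7199 to 9765 in HF and 6565 to 9628 in HF-Q, and its log2 ratio stayed within -0.12 and 0.15 in all livers. The residual SD of this probe was 0.62 times that of the median probe on the array. The log2 fold change was -0.047 ± 0.039 (SE; limma adjusted p = 0.982). Probe 2 of Cyp3a13 (chr5:138334265-138334324) gave -0.042 ± 0.053 (SE; limma adjusted p = 0.995).

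All 8 kept member probes had a lower mean in HF-Q, with a median log2 fold change of -0.045, where 52.4% of all 26288 kept probes were lower and their median was -0.0034. These directions are not independent, since several probes followed each other from liver to liver. With each array centred on its median in place of loess, 4 of the 8 were higher in HF-Q and the members' median was 0.00018, while the median of all probes moved to 0.022. None of the 8 passed the adjusted threshold of 0.05, and neither did any other probe (0%, limma). At an unadjusted p under 0.05, 2 of the 8 passed, Cyp3a25 and Cyp3a59 probe 2, both lower; over all probes 5.65% passed, 2.75% of all probes being lower.

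**Figure D1:**
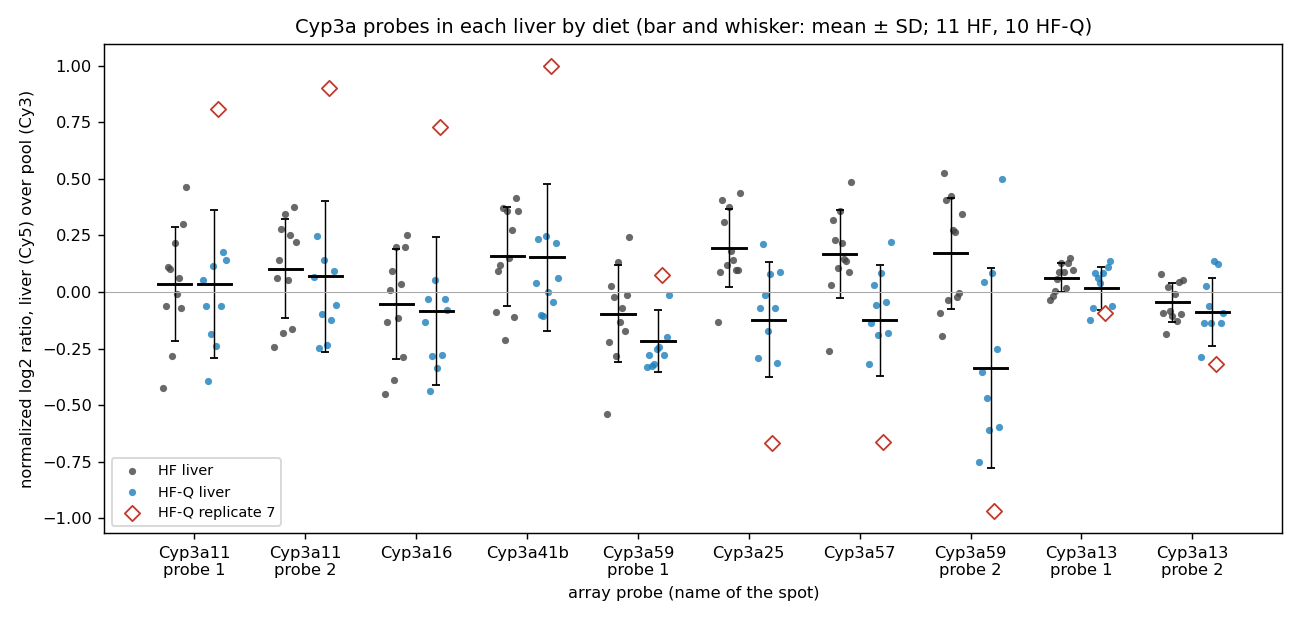
Normalized log2 ratio of liver (Cy5) to pool (Cy3) for 10 probes with a Cyp3a name (horizontal axis), 1 point per liver, in 11 HF and 10 HF-Q livers, with the mean and SD of each group. Replicate 7 of HF-Q (open diamonds) is the highest liver at the probes of Cyp3a11, Cyp3a16 and Cyp3a41b and the lowest at Cyp3a25, Cyp3a57 and Cyp3a59 probe 2.

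**Figure D2:**
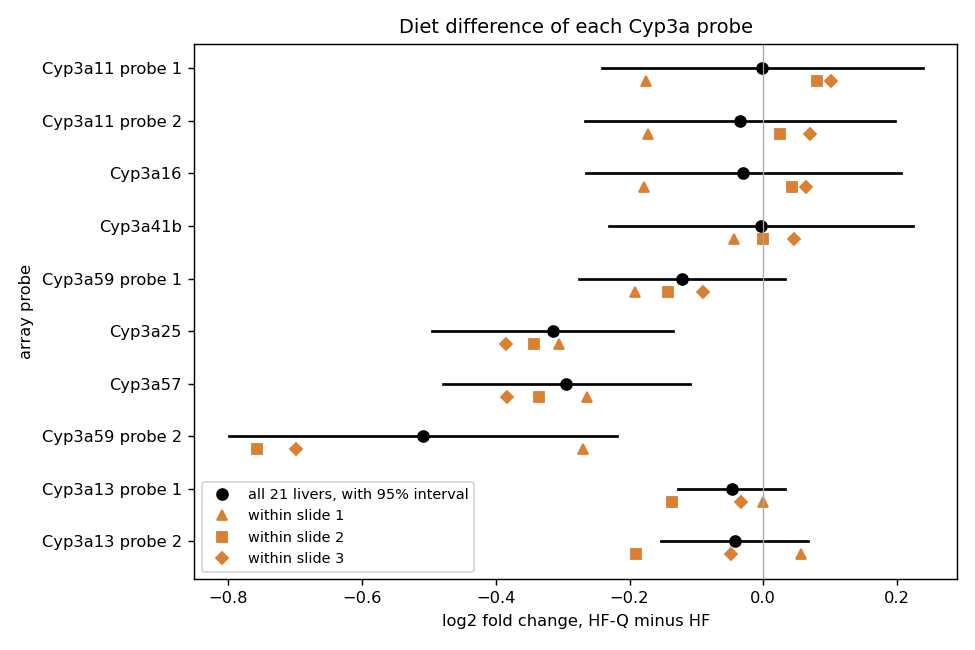
Log2 fold change (horizontal axis, HF-Q minus HF) of each Cyp3a probe over all 21 livers, with its 95% interval, and within each of 3 slides. The intervals of Cyp3a25, Cyp3a57 and Cyp3a59 probe 2 lie below 0 before adjustment over all probes, with all 3 slides on the same side, and those of the other 7 probes include 0.

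The probes fell into separate patterns when livers were compared one by one. Spots of a set may share transcripts by cross-hybridisation, which was not tested. The probes of Cyp3a11, Cyp3a16 and Cyp3a41b varied together across the 21 livers, with Pearson's r between 0.89 and 0.97 over their 6 pairs. Spearman's rho was 0.84 to 0.95. Cyp3a25, Cyp3a57 and Cyp3a59 probe 2 formed the other set, with r of 0.90 to 0.96 over 3 pairs and rho of 0.88 to 0.92. All 9 pairs passed a permutation test at an adjusted p of 8.2e-05 or lower over the 45 pairs of kept Cyp3a probes, a family added after the values were seen; 1e-05 is the smallest unadjusted p that 100000 permutations can give. The 2 livers farthest from the median were chosen for each pair at 1 of its probes only. They can differ between pairs, and a liver extreme at the other probe can stay in. Without these 2 livers, r stayed at 0.78 to 0.95 in the former set and 0.85 to 0.94 in the latter. It was 0.85 or higher in the former set and 0.82 or higher in the latter within each slide.

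In the family of 35 relations between members and with 5 other genes, 6 had an adjusted permutation p under 0.05. Cyp3a11 probe 2 with Cyp3a16 had r = 0.97 and rho = 0.95 (adjusted permutation p = 0.00035 for both), and r = 0.94 without the 2 farthest livers. Cyp3a59 probe 1 was also related to this set: with Cyp3a16 it had r = 0.77 and rho = 0.82, and with Cyp3a11 probe 2 r = 0.66 and rho = 0.69 (adjusted permutation p = 0.0114 and 0.007). The 2 probes of Cyp3a59 had r = 0.43 and rho = 0.54 (adjusted permutation p = 0.093 and 0.0351 over the 45 pairs). Without the 2 farthest livers r was 0.44, but these were chosen at probe 1 and did not include replicate 7 of HF-Q. Without replicate 7 it was 0.67 (adjusted permutation p = 0.00383), and within HF 0.72 (adjusted permutation p = 0.0222).

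Cyp3a59 probe 1 was related to the other set as well, with higher r once replicate 7 of HF-Q was left out. With Cyp3a25 its r was 0.38 over all livers (adjusted permutation p = 0.162 over the 45 pairs), 0.72 without replicate 7 (0.00121), 0.78 without the 2 farthest livers (2.4e-04) and 0.90 within HF (0.00075). With Cyp3a57, r was 0.49 over all livers (adjusted permutation p = 0.0576) and 0.86 without replicate 7. Over all livers rho was 0.64 with Cyp3a57 (adjusted permutation p = 0.00672) and 0.48 with Cyp3a25 (0.0688). Within HF-Q and without replicate 7, r of Cyp3a59 probe 1 was 0.050 with Cyp3a11 probe 2, 0.40 with Cyp3a16, 0.13 with Cyp3a25 and 0.59 with Cyp3a57.

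The relation between these sets differed in sign between the diets. In HF livers all 12 pairs across the sets were positive, with r of 0.54 to 0.81, and 4 passed the adjusted permutation threshold over 45 pairs. In HF-Q livers all 12 were negative, with r of -0.89 to -0.55, and 9 passed. For Cyp3a11 probe 2 with Cyp3a25, r was 0.62 in HF (adjusted permutation p = 0.0904) and -0.88 in HF-Q (adjusted permutation p = 0.00865). Without replicate 7 the HF-Q values were still negative, at -0.72 to -0.29, but no p was computed for them. Whether any of the 9 would pass without this liver is therefore not known. Over both diets without replicate 7, r was 0.18 to 0.455 and 0 of the 12 passed. The 12 pairs share probes that varied together, so they are not separate results. Over all 21 livers r was -0.29 to -0.098, and it became 0.18 to 0.40 without the 2 livers farthest from the median, so no pooled relation held. By slide, with both diets together, r was 0.078 to 0.57 on slide 1, 0.094 to 0.53 on slide 2, and -0.76 to -0.38 on slide 3, which holds replicate 7. The difference between the diets itself was not tested.

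**Figure D3:**
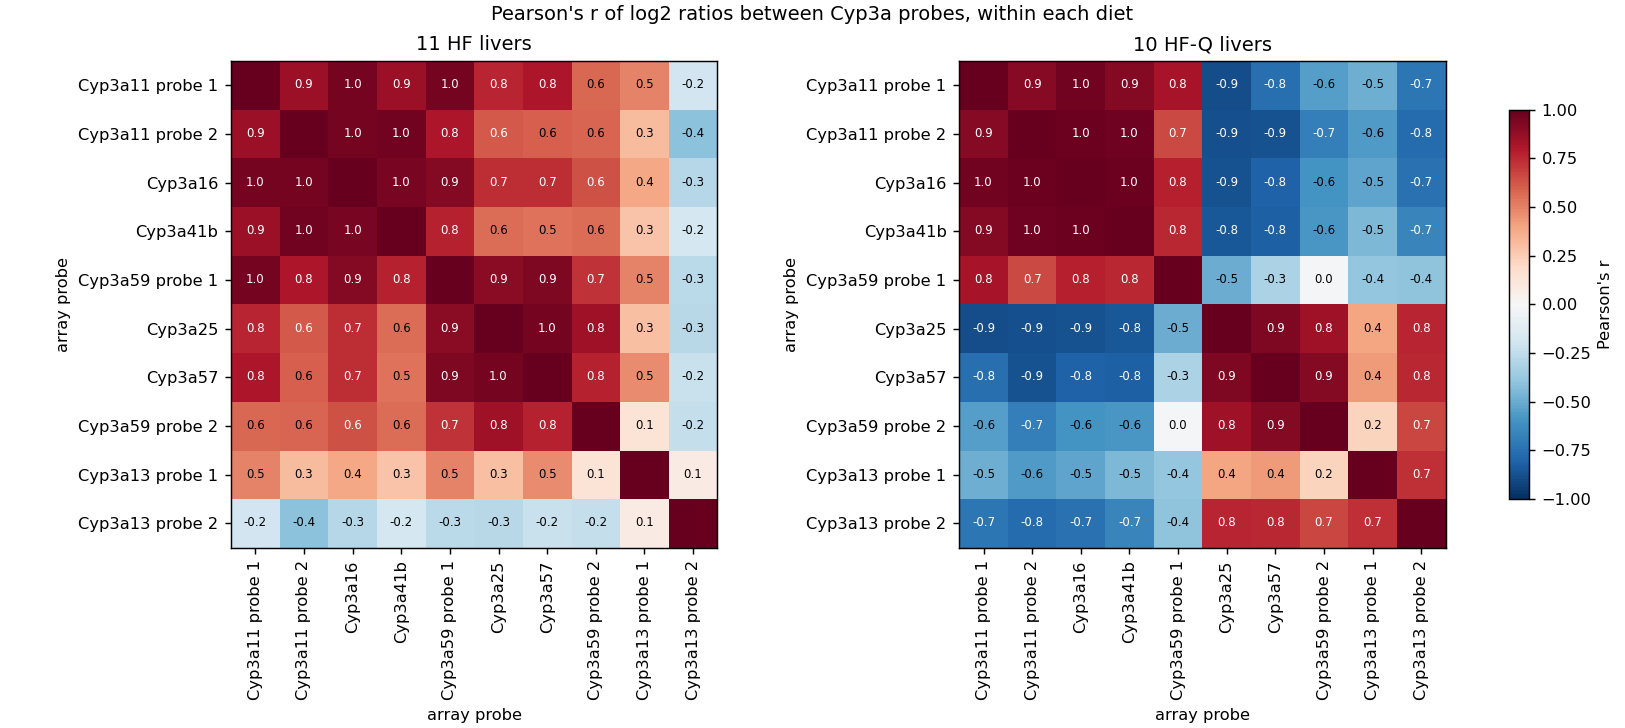
Pearson's r of log2 ratios between each pair of 10 Cyp3a probes (both axes), within 11 HF livers (left) and 10 HF-Q livers (right), on a colour scale from -1 to 1. The sets led by Cyp3a11 and by Cyp3a25 are positive throughout within themselves in both diets, and the 12 pairs across them run from 0.54 to 0.81 in HF and from -0.89 to -0.55 in HF-Q.

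**Figure D4:**
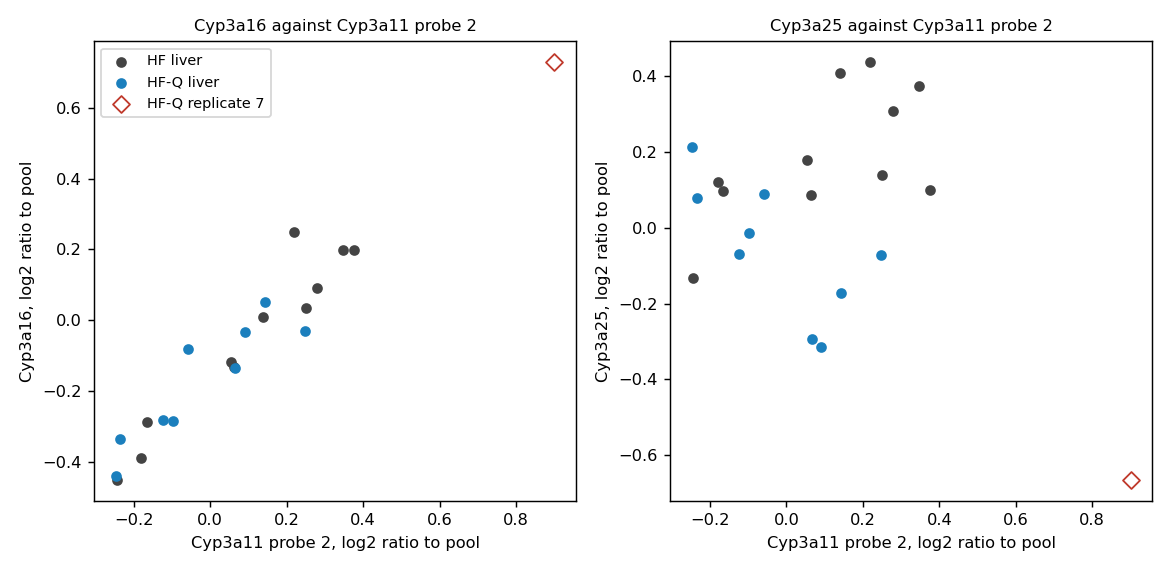
Log2 ratio to the pool of Cyp3a16 (left) and Cyp3a25 (right) against Cyp3a11 probe 2, 1 point per liver, by diet. The left panel is a single line (r = 0.97), and in the right panel r is 0.62 over the HF livers and -0.88 over the HF-Q livers, replicate 7 (open diamond) included.

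The probes of Cyp3a13 had weaker relations with both sets, and which of them passed the threshold changed with the livers used. They had r = 0.56 with each other (adjusted permutation p = 0.0258; rho = 0.42, adjusted permutation p = 0.132), and 0.27 without the 2 farthest livers. Cyp3a13 probe 2 ran against Cyp3a11 probe 2 (r = -0.64 and rho = -0.63, adjusted permutation p = 0.00505 and 0.00747), but not past the threshold without the 2 farthest livers (r = -0.47, adjusted permutation p = 0.122), without replicate 7 of HF-Q (-0.49, 0.0724) or within HF (-0.41, 0.286). Cyp3a13 probe 1 with Cyp3a57 had r = 0.52 (adjusted permutation p = 0.0397; rho = 0.38, adjusted permutation p = 0.188), but 0.21 without the 2 farthest livers (adjusted permutation p = 0.473) and 0.39 without replicate 7 of HF-Q (0.19). Cyp3a13 probe 2 with Cyp3a25 and Cyp3a57 had r = 0.46 and 0.44 over all livers (adjusted permutation p = 0.0752 and 0.0883), 0.76 and 0.75 within HF-Q (0.023 and 0.0234), and -0.28 and -0.22 within HF (0.477 and 0.577). With Cy5 alone these pairs had r = 0.68 and 0.71 over all livers (adjusted permutation p = 0.00289 and 0.0011).

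The promoters of Cyp3a11, Cyp3a16, Cyp3a25 and Cyp3a59 are shown because spots of these names varied together. Those were Cyp3a11 with Cyp3a16, and Cyp3a25 with Cyp3a59 probe 2. Cyp3a59 probe 1 was related to both sets, and Cyp3a41a and Cyp3a44 had no tested probe of their own. RefSeq's table (GRCm38.p6) gave the 250 bases before the start of all 7 listed genes, Cyp3a41b and Cyp3a57. Aligned over these bases, with gaps left out, Cyp3a11, Cyp3a16, Cyp3a41a, Cyp3a41b and Cyp3a44 were 80.9% to 99.6% identical to one another, and Cyp3a25, Cyp3a57 and Cyp3a59 were 90.3% to 95.6% identical. Identity between these groups was 63.7% to 69.2%, and Cyp3a13 had 63.3% to 68.3% with either. Capitals mark AGGTCA, the half-site read by nuclear receptors that pair with RXR, on either strand.
Cyp3a11 (chr5:145879855-145880104, minus strand): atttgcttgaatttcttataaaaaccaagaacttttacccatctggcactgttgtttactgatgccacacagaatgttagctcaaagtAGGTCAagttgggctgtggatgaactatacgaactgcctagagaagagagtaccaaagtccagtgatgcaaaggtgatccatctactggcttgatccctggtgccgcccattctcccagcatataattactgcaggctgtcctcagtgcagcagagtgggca
Cyp3a16 (chr5:145469724-145469973, minus strand): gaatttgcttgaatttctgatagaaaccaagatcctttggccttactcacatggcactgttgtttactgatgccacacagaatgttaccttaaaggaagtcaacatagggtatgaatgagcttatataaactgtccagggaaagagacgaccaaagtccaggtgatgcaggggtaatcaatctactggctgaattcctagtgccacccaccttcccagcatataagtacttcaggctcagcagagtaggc
Cyp3a25 (chr5:146009619-146009868, minus strand): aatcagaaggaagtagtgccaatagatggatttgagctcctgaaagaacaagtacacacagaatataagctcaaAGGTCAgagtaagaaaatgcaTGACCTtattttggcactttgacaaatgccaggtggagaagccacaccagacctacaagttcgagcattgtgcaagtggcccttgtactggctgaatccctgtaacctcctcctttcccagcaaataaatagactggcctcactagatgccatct
Cyp3a59 (chr5:146079008-146079257, plus strand): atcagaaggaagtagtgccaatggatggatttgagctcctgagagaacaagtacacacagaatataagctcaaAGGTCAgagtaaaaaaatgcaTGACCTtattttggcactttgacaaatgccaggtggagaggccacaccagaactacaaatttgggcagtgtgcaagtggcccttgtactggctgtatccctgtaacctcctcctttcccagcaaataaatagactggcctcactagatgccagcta

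Cyp3a25, Cyp3a57 and Cyp3a59 each hold AGGTCA and, 15 bases on, its reverse complement TGACCT, starting 176 and 155 bases before the start of Cyp3a25 and 177 and 156 bases before that of Cyp3a59. Cyp3a11 has 1 match, 162 bases before its start, and Cyp3a44 has 1 at 150 bases. Cyp3a16, Cyp3a41a, Cyp3a41b and Cyp3a13 have none in this window. Of all 32851 promoter windows of the same length, 14% hold the motif on either strand and 1.36% hold it at least 2 times. A forward and a reverse match 15 bases apart occur in 5 windows (0.0152%), those of these genes included; that spacing was chosen after it had been seen in these genes. A match describes the letters and not a site that was measured here.

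The receptors and other regulators of the family were tested in the same fit, 1 probe per gene. Of 17 regulators, 16 were kept, 6 higher and 10 lower in HF-Q (53.1% of 19716 genes were lower), with a median log2 fold change of -0.024 against -0.0044 over all genes. None passed the adjusted threshold, as for all genes (0%). At an unadjusted p under 0.05, 2 were lower, where 5.87% of all genes passed that rule, 2.89% lower and 2.98% higher. These were Nr1h4, the bile acid receptor, at -0.20 ± 0.055 (SE), and Nr1i3, the receptor CAR, at -0.18 ± 0.064. Ncoa1, a coactivator of nuclear receptors, had -0.068 ± 0.054. Nr1i2, the receptor PXR, had -0.0076 ± 0.054.

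Cyp3a25 and Nr1i3 varied together, with r = 0.71 and rho = 0.71 (adjusted permutation p = 0.00525 and 0.00607). The value was 0.57 without the 2 farthest livers and 0.54 without replicate 7 of HF-Q, the lowest liver for both genes; in neither case did it pass the adjusted threshold (adjusted permutation p = 0.0665 and 0.06995). Within HF r was 0.33 and within HF-Q 0.70, neither past the adjusted threshold (adjusted permutation p = 0.65 and 0.157). Within HF-Q without replicate 7 it was 0.37. By slide r was 0.35, 0.97 and 0.81, the last on the slide that holds replicate 7. Cyp3a13 probe 1 had r = 0.63 and rho = 0.51 with Nr1i3 (adjusted permutation p = 0.016 and 0.11), and r of -0.34, 0.89 and 0.86 by slide. This pair did not pass without the 2 farthest livers (r = 0.47, adjusted permutation p = 0.186) or without replicate 7 of HF-Q (0.54, 0.06995). It also did not pass within HF (0.74, 0.0615) or within HF-Q (0.50, 0.357). As residuals from the slide means it passed (0.61, 0.0256). Cyp3a25 had r = 0.62 and rho = 0.63 with Cyp2b10 (adjusted permutation p = 0.0161 and 0.0231), a gene widely used as a readout of CAR. For this pair r was 0.57 without the 2 farthest livers (adjusted permutation p = 0.0665) and 0.59 without replicate 7 of HF-Q (0.0468). Within HF it was 0.33 and within HF-Q 0.47, neither past the adjusted threshold (adjusted permutation p = 0.65 and 0.402). Both genes had a lower mean in HF-Q. None of the 5 members had an adjusted permutation p under 0.05 with Nr1i2, Por or the albumin gene Alb. For Cyp3a11 probe 2 and Nr1i2, r was 0.11.

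Of 25 kept CAR and PXR target genes among 32 listed, 9 were higher and 16 lower in HF-Q, with a median of -0.017; 6 were lower at an unadjusted p under 0.05 and 0 higher, and none passed the adjusted limma threshold. Over all genes 53.1% were lower, and 2.89% were lower and 2.98% higher at that unadjusted p. The 3 of lowest p were Cyp2b10 at -1.34 ± 0.33 (SE), Cyp2b13 at -0.75 ± 0.19 and Cyp2b9 at -0.76 ± 0.21, all steroid- and drug-oxidising P450 enzymes of another family. Probes of these 3 Cyp2b genes may share transcripts by cross-hybridisation, which was not tested. The 6 lower genes may therefore not be separate results. Among the 8 genes that support P450 enzymes, 3 were higher and 5 lower. Cyb5a, the electron donor cytochrome b5, had -0.21 ± 0.061 and was the 1 member at an unadjusted p under 0.05; Hmox1 had -0.14 ± 0.073, Pgrmc1 -0.071 ± 0.036, and Por, the reductase, -0.065 ± 0.18.

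Lists of genes with a known bias between the sexes of mouse liver were read because several Cyp3a genes have one. Of 15 genes known for higher levels in females, 9 were kept; 8 were lower in HF-Q, 3 of them at an unadjusted p under 0.05 (Cyp2b13, Cyp2b9 and Hao2, a hydroxyacid oxidase, at -0.37 ± 0.12 SE), and the median was -0.33. Cyp2b9 and Cyp2b13 also stand in the list of CAR and PXR targets. Of 15 known for higher levels in males, 13 were kept; 9 were higher, 1 at an unadjusted p under 0.05 (Mup20, a major urinary protein, 0.37 ± 0.16), with C6 at 0.25 ± 0.13 and Cyp7b1 at 0.24 ± 0.14, and the median was 0.10. Over all genes 53.1% were lower, 2.89% were lower and 2.98% higher at that unadjusted p, and the median was -0.0044. The lists describe these libraries and were not tested as sets.

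Among probes without a Cyp3a name, the unnamed A_55_P2148071 shown above most resembled both Cyp3a11 and Cyp3a16 over the 21 livers. Its r was 0.92 with Cyp3a11 probe 2 and 0.96 with Cyp3a16, among 19217 genes whose median r with either was -0.011 and -0.0094. It lies between the Cyp3a41b and Cyp3a44 probes on the chromosome, inside the Cyp3a cluster. It may itself read a Cyp3a transcript, which was not tested. Haus6, a subunit of a spindle complex, followed at 0.79 and 0.81 (rho = 0.76 and 0.79). Gm14488 had 0.78 and 0.81, with a lower rho of 0.56 and 0.61. For Cyp3a25 the 3 genes were Ftcd (r = 0.91) and Uroc1 (0.90), both enzymes of histidine breakdown, and Gpt (0.87), an alanine aminotransferase. Their rho was 0.77, 0.90 and 0.77. For Cyp3a13 probe 1 they were Zfp456 (0.78), Sugct (0.76) and Abcc3 (0.75), the last an exporter of conjugates. For Cyp3a59 probe 1 the highest was Ifitm2 (0.84), followed by 2 probes without a gene symbol. These r values were picked as the highest of many and are given as descriptions.

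Within 500 kb of a member probe, 54 other genes or unnamed probes were kept, of which 34 were higher and 20 lower in HF-Q, with a median of 0.013; none passed the adjusted limma threshold and 5 had an unadjusted p under 0.05, 4 higher and 1 lower. Over all genes 53.1% were lower and 5.87% had an unadjusted p under 0.05. The 54 include A_55_P2148071 and A_55_P2122464, which may read Cyp3a transcripts, and this was not tested. A_55_P2122464 was the 1 lower, and it had r = 0.88 and rho = 0.87 with Cyp3a57 over the 21 livers. The 2 of lowest p were unnamed. A_55_P2122464 lies 607 bases from the Cyp3a25 probe and had a log2 fold change of -0.27 ± 0.066 (SE; unadjusted limma p = 3.7e-04, adjusted 0.694), and A_55_P2145557 had 0.13 ± 0.036 (unadjusted limma p = 0.0021).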

How the data were processed

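Scanner files of 21 arrays were deposited by the authors with red (Cy5) and green (Cy3) intensity per spot, made with Agilent Feature Extraction 10.7.3.1 per the submitters' processing notes. The deposited series table holds log2 values by the authors that followed log2 Cy5 (r 0.985 to 0.999 per array); how it was normalized is not stated there. From the intensities, normexp (offset 50), loess within arrays, and averaging per probe were computed with limma 3.58.1 in R 4.3.3. Probes well above background in Cy5 on at least 10 arrays were kept (26288), and the diets were compared with limma and Benjamini-Hochberg adjustment over all of them. Each array is 1 mouse, and slide (the same split as scan time) was tried as a block. Correlations used 100000 two-sided permutations; promoters were aligned with Biopython 1.88. The scripts were tested on simulated data. All member spots are described; from other lists the 3 of lowest p, always Nr1i2, Nr1i3, Por and Cyp2b10, the 3 genes most like each member's brightest probe, and the 2 neighbours of lowest p are named. The members and lists were chosen with earlier results of these data known. Probe coordinates are those of the files (NCBI37); exon annotation of that build was not used here.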

Additional observations from a re-analysis of the deposited data

Results flagged for a closer look

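In HF-Q livers, the highest value stood far from the others at 4 of 10 Cyp3a probes, and in each it was replicate 7. Its log2 ratio was 0.81 at Cyp3a11 probe 1 (next highest 0.18), 0.90 at Cyp3a11 probe 2 (next 0.25), 0.73 at Cyp3a16 (next 0.051) and 0.998 at Cyp3a41b (next 0.25). The gap to the next liver made up 52.6%, 56.9%, 58.1% and 67.9% of the range of the 10 livers. Chance alone flags about 1 in 20 such groups, and these probes follow one another, so the 4 are not separate events. The HF group, with 11 livers, was not examined this way. The same liver was the lowest of 21 at Cyp3a25 (-0.67), Cyp3a57 (-0.66), Cyp3a59 probe 2 (-0.97), Cyp3a13 probe 2 (-0.32) and Nr1i3 (-0.57); for Alb it lay among the others, at 0.67.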

How the results depend on the processing

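No Cyp3a probe passed the adjusted limma threshold under any of the alternatives or with any liver left out, and the log2 fold changes of Cyp3a25 (-0.38 to -0.26 over 17 alternatives, -0.35 to -0.25 leaving out a liver), Cyp3a57 and both Cyp3a59 probes kept their sign in all of them. At an unadjusted p under 0.05 the counts were 2 of the 8 kept member probes (3 of 10 with Cyp3a41b and Cyp3a57) and 1486 of all probes; with array weights and on slide 2 alone 1 probe of all passed the adjusted threshold, as without HF-Q replicate 10 (0 to 1 over all livers left out). The members' median was -0.18 on slide 1 alone (0.00018 with median centring), and -0.12 to -0.033 when a liver was left out, the lowest without HF-Q replicate 7. Sign changes concerned probes near 0, and their cause was not tested. Cyp3a11 probe 1 turned to 0.0039 with offset 16, 0.062 with median centring, 0.034 in the deposited table, 0.0018 with slide as a block, 0.081 and 0.10 on slides 2 and 3, and 0.0061 with the row on the slide as a term. Cyp3a41b turned to 0.0018 with the scanner's processed signals, 0.038 with median centring, 0.0070 with Cy5 alone, 0.0050 in the deposited table, 0.0033 with slide as a block, 0.047 on slide 3 and 0.0018 with the row term. Cyp3a11 probe 2 and Cyp3a16 turned to 0.041 and 0.031 with median centring, 0.026 and 0.043 on slide 2, and 0.070 and 0.064 on slide 3; Cyp3a13 probe 1 to 0.0032 with median centring and Cyp3a13 probe 2 to 0.057 on slide 1. Leaving out a liver, Cyp3a11 probe 1 ranged from -0.087 to 0.046, Cyp3a16 from -0.12 to 0.0094 and Cyp3a41b from -0.097 to 0.026. Median centring also moved the share of all probes that were higher in HF-Q from 47.6% to 64.7%.

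Replicate numbers are shared by the diets. Of 10 same-numbered pairs only 2 had deviations correlated above 0.1 (range -0.32 to 0.16), and 0 HF livers correlated best with their own number. These values gave no sign that the numbers pair the mice, but they cannot exclude it. With the replicate number as a block 0 probes passed, the members' median was -0.038, and Cyp3a11 probe 1, Cyp3a16 and Cyp3a41b had 0.041, 0.00047 and 0.017.

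Of the 35 relations, 6 passed over all livers, 3 within HF-Q, 4 within HF, 6 as residuals from slide means, 5 with Cy5 alone, 4 without the 2 farthest livers and 5 without HF-Q replicate 7, a setting added after seeing the data.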
